A study of Mus musculus with 47 samples.

Results

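The matrix proteases and their inhibitors studied here are the genes of 4 families, chosen by symbol alone: the matrix metalloproteinases (*Mmp*), the tissue inhibitors of metalloproteinases (*Timp*), the secreted *Adamts* proteases and the membrane-bound *Adam* proteases. A total of 55 of the 17078 genes in the table belonged to them, 16 *Mmp*, 4 *Timp*, 18 *Adamts* and 17 *Adam* genes, out of 79 such symbols in the annotation. The other 24 symbols, among them *Mmp7*, *Mmp8*, *Mmp10*, *Mmp20*, *Mmp27* and *Adamts19*, are not analysed here. All 55 were kept in every count, except where a count is given over genes above a set level. Of the 55, 34 had a mean of at least 5 CPM (reads scaled to an equal library size) over all libraries.

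Metalloproteinases of these families hold a zinc ion in the active site and are made as inactive precursors. MMPs cleave collagens, laminins and other matrix proteins, and some are anchored in the cell membrane. ADAMTS proteases cleave proteoglycans such as versican and aggrecan or process procollagen, and ADAMs release growth factors, receptors and adhesion molecules from the cell surface. TIMPs bind the active site and block it, and TIMP3 stays bound to the matrix and also inhibits several ADAM and ADAMTS proteases. In the mammary gland these enzymes are known for branching of the ducts and for the breakdown of basement membrane and the regrowth of fat after weaning.

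RNA-seq was done on 46 libraries of luminal (Lin-CD24+CD29lo, 24 libraries) and basal (Lin-CD24+CD29hi, 22 libraries) mammary epithelial cells sorted from FVB/N mice. Mice that were never pregnant gave glands at 10 weeks of age (W10) and at 4 months (M4). Pregnant mice were taken on day 3.5 (P3.5) or 14.5 (P14.5) and nursing mice on lactation day 3 (L3) or 10 (L10). Weaned mice were taken 2 days after forced weaning on lactation day 10 (Id2) or 4 weeks after weaning (Iw4, parous glands). Each of the 8 time points had 3 replicates per cell type, except basal P14.5 and L10 with 2, and luminal and basal cells of a replicate came from the same sort of the pooled glands of 4 mice. No mutant, treatment or transgene was named for any group. Libraries held 4398806 to 20023054 reads on genes, so that 3 reads, the smallest amount taken as measurable, were worth 0.170 to 1.05 CPM. This floor covers counting error only. RNA was amplified in batches. A single batch held W10 with Id2, another both lactation time points and another both time points of pregnancy. M4 and Iw4 libraries were mixed in 3 further batches. Sequencing lanes 2, 3, 5, 6 and 8 each held a single time point (W10, Id2, P3.5, P14.5 and L10), and lane 7 held L3, M4 and Iw4. A difference between Id2 and L10 can therefore not be told apart from one between batches or lanes, nor one between Id2 and W10 from one between lanes. Likewise, a difference of pregnancy or lactation from the other stages cannot be told apart from one between batches. For P3.5, P14.5 and L10, each alone on a lane, the same holds for lanes. Luminal and basal libraries of the same replicate were amplified in the same batch.

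Promoters of 4 genes on which the results turn are printed to show how unlike they are: *Timp1* and *Mmp3*, which were highest in basal cells at Id2, and *Timp3* and *Timp4*, which were highest in basal cells in lactation. They are the 300 bases from 250 before to 50 after the RefSeq gene start (GRCm38.p6), at chrX:20869916-20870215 for *Timp1* (plus strand), chr9:7445572-7445871 for *Mmp3* (plus strand), chr10:86300162-86300461 for *Timp3* (plus strand) and chr6:115252156-115252455 for *Timp4* (minus strand). Capitals mark matches, on either strand, to the AP-1 motif TGANTCA, where N is any base, and to the TATA box TATAAA.
Timp1: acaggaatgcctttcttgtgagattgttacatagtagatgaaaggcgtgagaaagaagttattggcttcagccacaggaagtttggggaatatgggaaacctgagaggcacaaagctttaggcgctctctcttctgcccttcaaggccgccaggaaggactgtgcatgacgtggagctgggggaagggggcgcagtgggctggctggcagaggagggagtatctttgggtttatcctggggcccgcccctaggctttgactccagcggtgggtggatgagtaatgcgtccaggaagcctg
Mmp3: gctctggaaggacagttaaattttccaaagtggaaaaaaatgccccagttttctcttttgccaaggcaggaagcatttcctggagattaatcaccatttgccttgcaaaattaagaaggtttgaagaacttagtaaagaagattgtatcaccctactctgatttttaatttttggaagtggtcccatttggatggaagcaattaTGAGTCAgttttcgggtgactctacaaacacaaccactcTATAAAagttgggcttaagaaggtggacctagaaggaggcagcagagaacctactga
Timp3: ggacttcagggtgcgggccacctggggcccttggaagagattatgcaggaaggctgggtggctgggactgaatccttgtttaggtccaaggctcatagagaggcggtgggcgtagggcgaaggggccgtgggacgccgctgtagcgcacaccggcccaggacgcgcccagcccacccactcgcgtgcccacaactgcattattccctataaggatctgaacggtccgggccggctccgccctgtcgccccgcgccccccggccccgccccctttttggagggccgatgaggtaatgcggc
Timp4: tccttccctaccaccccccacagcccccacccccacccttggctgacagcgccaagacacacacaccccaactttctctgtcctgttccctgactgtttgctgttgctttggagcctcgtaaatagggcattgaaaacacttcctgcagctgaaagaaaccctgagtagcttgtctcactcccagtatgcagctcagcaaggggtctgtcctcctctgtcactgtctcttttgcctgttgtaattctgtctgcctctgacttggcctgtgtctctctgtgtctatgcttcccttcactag
In these windows only *Mmp3* held either motif, TGAGTCA starting 46 bases and TATAAA starting 7 bases before the annotated start. Matches had to be exact, and near matches such as TGAGTAA in the *Timp1* window are not marked. TGANTCA was found in 7.81% and TATAAA in 13.6% of the 32851 promoters of the table. Of the 33 genes of the 4 families with a promoter there, 4 held TGANTCA (*Adam19*, *Mmp12*, *Mmp13* and *Mmp3*) and 5 held TATAAA (*Adamts1*, *Mmp12*, *Mmp13*, *Mmp21* and *Mmp3*). The TATA box was added after the values were seen, and these matches are a description of letters in a window.

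The 3 basal libraries of Id2 stood apart from the other 19 basal libraries and from each other, and every result that rests on them is given with this in view. The summed level of 7 basal markers (led by *Acta2*, and with the keratin gene *Krt5*) was 876, 14120 and 879 CPM in replicates 2, 4 and 6, against 10420 to 65100 CPM in the other basal libraries. *Krt5* itself was at 4.68, 156 and 6.95 CPM. The sum of 8 endothelial markers was 18610, 665 and 576 CPM (other basal libraries 21.0 to 1512), led in replicate 2 by *Vwf* with 7390 CPM. The sum of 8 fibroblast markers was 2273, 7821 and 54950 CPM (others 217 to 9616), led by *Col1a1* with 27790 CPM in replicate 6. The sum of 7 pericyte markers was 3326, 11420 and 2675 CPM (others 86.7 to 16520), led by *Rgs5*. So replicate 2 was rich in endothelial RNA and replicate 6 in fibroblast RNA, both with few basal markers, and replicate 4 alone had a basal marker sum within the range of the other time points, with *Krt5* below the 779 CPM of the lowest basal library of those time points. *Acta2*, which leads the basal sum, is also expressed by pericytes. The lineage-negative gate of the sort used antibodies against CD31, CD140a (listed as human), CD45, CD11b, Ly-6G/Ly-6C and Ter-119, and is meant to remove endothelial, fibroblast and blood cells. *Pecam1*, the gene of CD31, was at 3205 CPM in replicate 2 (1.70 to 248 CPM in basal libraries of other time points) and *Pdgfra*, the gene of CD140a, at 2002 CPM in replicate 6 (0.254 to 214 CPM). No defining marker of these 4 lists was at 0 in any of the 3 libraries. The 8 macrophage markers in the table summed to between 46.4 and 63.8 CPM, and the neutrophil gene *S100a8*, the only one of 5 neutrophil markers in the table, stood at 2.65 CPM or less. In bulk libraries, fewer cells of a type and less RNA per cell cannot be told apart.

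Other libraries carried RNA of such cells too. The basal P14.5 libraries held 9616 and 4672 CPM of fibroblast markers and basal L3 replicate 6 held 4781 CPM, and the basal L10 libraries held 9374 and 16520 CPM of pericyte markers, whereas at W10 the pericyte sum was 162 to 196 CPM. Of the luminal libraries, Id2 replicate 6 held 3901 CPM of fibroblast markers, against 161 and 384 CPM in Id2 replicates 2 and 4. Luminal marker sums were 4633 to 5404 CPM in the Id2 luminal libraries, against 4061 to 9219 CPM in the other luminal libraries.

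**Figure D1:**
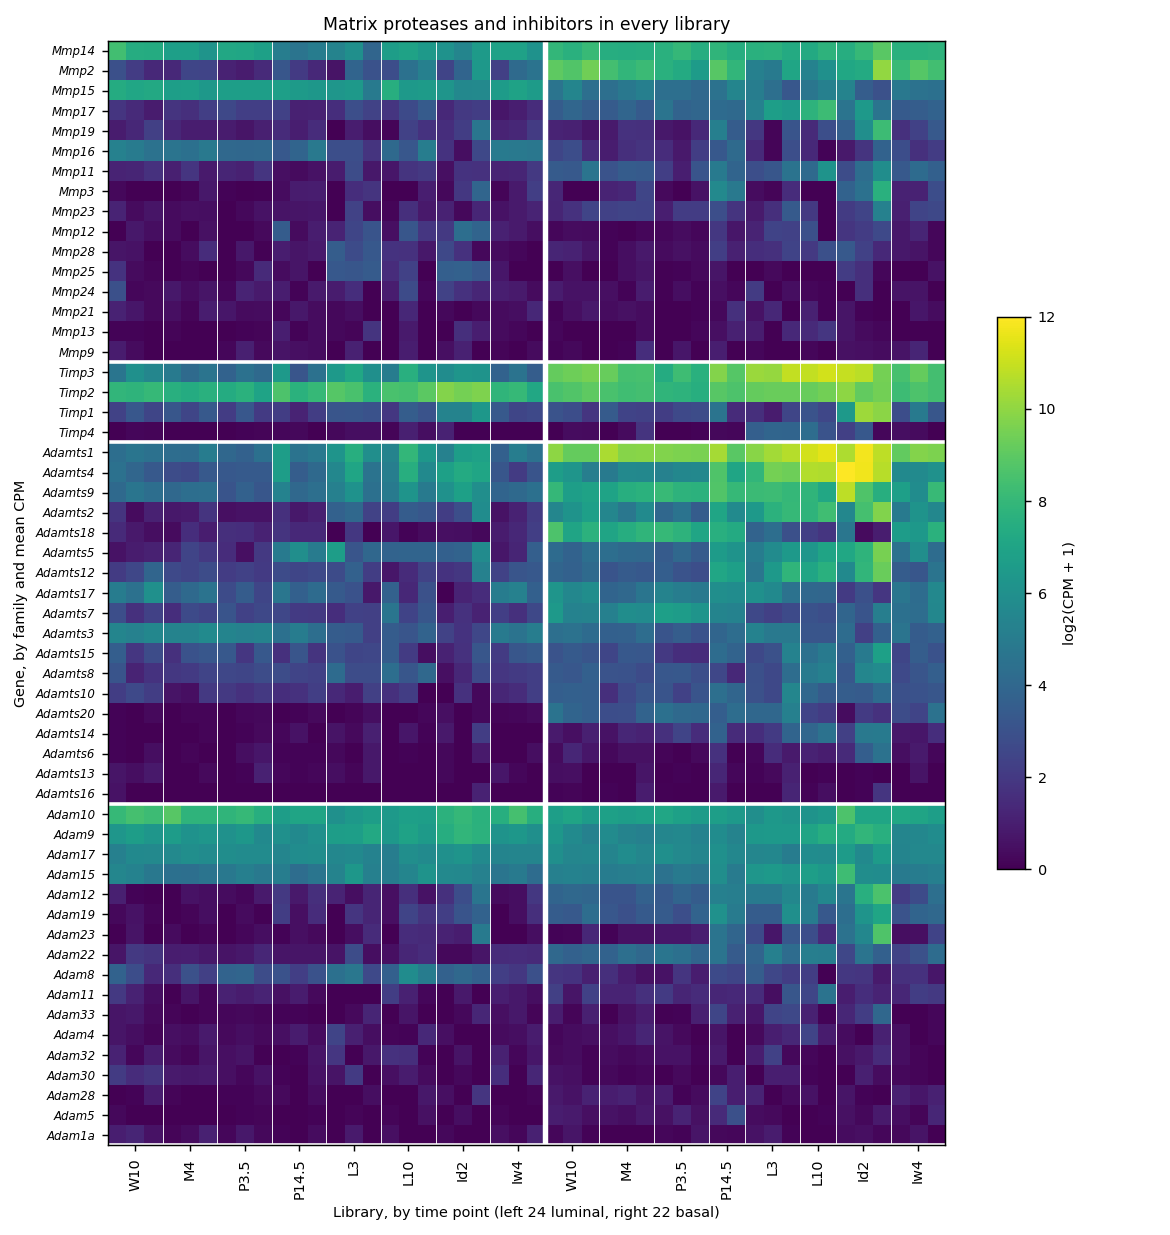
Level of all 55 genes, as log2(CPM + 1), in each of the 24 luminal (left) and 22 basal (right) libraries, ordered by time point and within a time point by replicate number. The *Adamts* block is brighter on the basal side, and in the basal Id2 columns the libraries differ from each other.

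The first question was in which of the cell types these genes are expressed. Averaged over the 8 time points, 27 of the 55 genes were called higher in basal cells and 3 higher in luminal cells, with limma, if the levels differed at least 2-fold and the false discovery rate (FDR) over all genes was below 0.01. Of all 17078 genes, 13.6% were called basal and 7.35% luminal by the same rule. The median log2 difference, basal minus luminal, was 0.99 over the 55 genes and 0.02 over all genes. By family, 13 of 18 *Adamts*, 7 of 16 *Mmp*, 5 of 17 *Adam* and 2 of 4 *Timp* genes were called basal, and 2 *Mmp*, 1 *Adam* and no *Adamts* or *Timp* gene luminal. Without Id2 and P14.5, at which every basal library had at least 2273 CPM of fibroblast markers, 23 genes were called basal over the other 6 time points (13.5% of all genes), all of them among the 27. The genes called with all 8 time points and not with these 6 were *Mmp3*, *Mmp19*, *Adam23* and *Adamts15*. The basal L3 and L10 libraries, kept in these 6, held 1928 to 16520 CPM of pericyte markers. Basal L3 replicate 6 also held 4781 CPM of fibroblast markers. The part of such RNA in the basal calls was not tested. Of the 27, *Mmp3* was not called by edgeR, and of the 23 *Mmp14* was not (1.02 in limma, 0.93 in edgeR). The *Mmp14* call over the 6 time points was also lost without any one of 8 libraries (0.92 or more). That of *Mmp23* was lost without basal L10 replicate 5 (0.96). The luminal genes were the same 3 either way (7.77% of all genes without Id2 and P14.5).

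The aggrecan- and versican-cleaving protease gene *Adamts1* was the gene with the highest level per kilobase of exon in basal cells, 237 CPM per kb, and ranked 7th in luminal cells, with 10.5. Its basal libraries ranged from 494 to 3498 CPM (median 935, n = 22) and its luminal libraries from 11.9 to 247 CPM (median 29.6, n = 24). It was the only one of the 55 genes whose basal and luminal libraries did not overlap at all, as in 1.23% of all genes with basal and 0.545% with luminal libraries higher, so that this count was near the background. Its log2 difference was 4.84 ± 0.19 (SE). *Mmp2*, which encodes gelatinase A, followed with 4.82 ± 0.29, *Adamts18* with 4.65 ± 0.23, *Adamts2*, a procollagen N-proteinase, with 4.46 ± 0.26, and *Timp3* with 4.26 ± 0.19. *Adam12* (3.49), *Adam19* (3.18), *Adamts20* (3.17), *Adamts4* (3.12), *Adamts9* (3.10), *Adam22* (3.06), which encodes a receptor without protease activity, and *Mmp17* (2.93) were next. All of these had an adjusted p below that of every luminal call, between 7.31e-23 and 5.93e-15 in limma.

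The 3 luminal genes were *Mmp15*, which encodes a membrane-type MMP, with a log2 difference of -1.98 ± 0.16, *Mmp16*, another membrane-type MMP, with -1.90 ± 0.22, and *Adam8* with -1.65 ± 0.21 (adjusted p = 7.19e-14, 1.90e-09 and 1.98e-08 in limma). *Mmp15* had 28.4 to 183 CPM in luminal libraries (median 95.7) and 6.95 to 43.5 CPM in basal libraries (median 21.97), so that the ranges overlapped. The sheddase genes *Adam10*, *Adam9* and *Adam17*, which ranked 2nd, 3rd and 9th of the 55 in level per kilobase in luminal cells, differed by less than a factor of 2, with log2 differences of -0.73 ± 0.11, -0.35 ± 0.08 and 0.04 ± 0.08. *Timp2*, with the highest level per kilobase in luminal cells (84.7 CPM per kb, against 119.5 in basal cells), differed by 0.62 ± 0.09, short of the minimum fold change. *Timp1* differed by 0.43 ± 0.25 (adjusted p = 0.138 in limma).

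**Figure D2:**
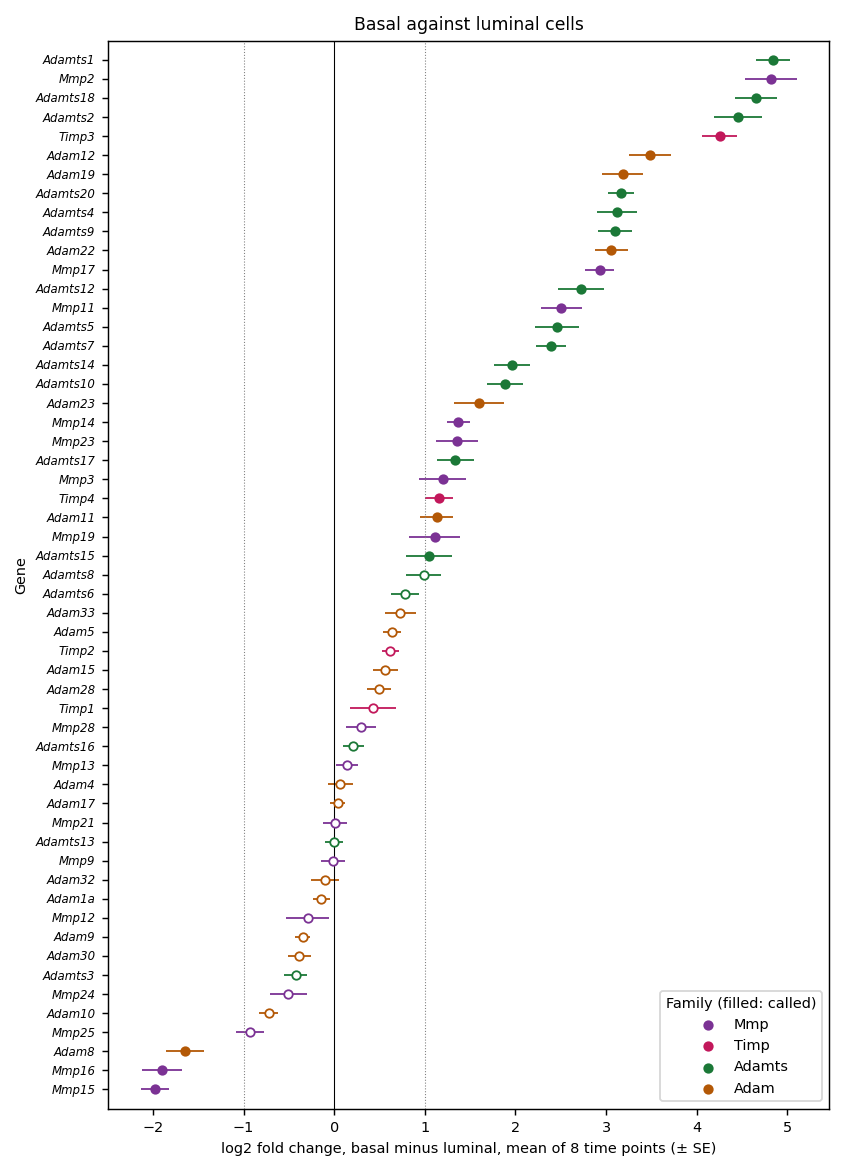
Difference between basal and luminal cells of each of the 55 genes on the log2(CPM + 1) scale, mean of the 8 time points with its standard error, coloured by family. Filled points were called (2-fold or more, dotted lines, and FDR below 0.01), 27 to the right and 3 to the left.

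At single time points the number called basal was 15 at W10, 14 at P3.5, 23 at P14.5, 21 at L3, 19 at L10, 28 at Id2, 13 at Iw4 and 13 at M4. The shares of all genes called basal at these time points were 9.1%, 7.27%, 9.54%, 15.9%, 13.8%, 12.2%, 7.79% and 8.2%. Called luminal were 4, 4, 0, 2, 3, 3, 2 and 4 of the 55 genes, and 5.12%, 4.64%, 3.39%, 9.87%, 10.9%, 9.39%, 3.75% and 4.24% of all genes. At Id2, where the basal libraries differ in their cell markers, 20 genes were called basal and 2 luminal with replicate 4 as the only basal library (8.97% and 5.25% of all genes). Here and below, a fit with this library alone assumes that it varies like libraries of the other groups. A total of 7 genes were called basal at each of the 8 time points (*Adam19*, *Adamts1*, *Adamts2*, *Adamts4*, *Adamts9*, *Mmp17* and *Timp3*), as were 2.39% of all genes, and 14 at none in either direction, against 54.2% of all genes. *Adam12* and *Adam22* were called basal at 7 time points, all but Iw4. With the sort as a block both were called at Iw4 too (adjusted p = 0.00318 and 0.00397 in limma, 0.0132 and 0.0113 without it). *Mmp15* was called luminal at 7 time points, all but P14.5, and *Mmp16* at 5. With each library left out in turn, *Adamts1*, *Adamts2* and *Timp3* kept all 8 calls. That of *Adamts4* was lost at W10 without any one of 31 libraries, at P3.5 of 33 and at M4 of 4 (1.75 or more), and at P14.5 without basal or luminal replicate 3 (2.26 and 2.48). That of *Mmp17* was lost at P3.5 without any one of 3 and at M4 of 4 libraries (1.52 or more). That of *Adamts9* was lost at L10 without any one of 4 libraries (1.86 or more), and that of *Adam19* at L10 without luminal replicate 4 or basal replicate 5 (2.03 and 1.72) and at Id2 without basal replicate 6 (2.23). *Mmp15* lost its call without any one of 3 libraries at L3 and of 2 at L10, and without basal replicate 6 at Id2 or basal replicate 1 at M4 (-1.16 or below). *Mmp16* lost its call at W10, P3.5, L10 and Iw4 without 1 basal library each (replicates 6, 4, 6 and 5, with -2.26, -2.19, -2.79 and -2.38). By edgeR *Adam19* was not called at L10 (adjusted p = 0.0115), *Adamts4* not at W10 and P3.5 (0.0145 and 0.0128) and *Mmp16* not at P3.5 and Iw4 (0.0103 and 0.0141).

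*Adamts3*, a procollagen N-proteinase, was the only gene called in both directions. Luminal cells had 42.1 ± 4.1 CPM at W10, 40.1 ± 2.1 at P3.5 and 44.2 ± 6.5 at M4 (SD, n = 3 each), and 3.82 ± 1.3 CPM at Id2. Basal cells had 19.8 ± 2.6, 8.44 ± 1.8 and 14.4 ± 3.8 CPM at W10, P3.5 and M4, and 31.5 ± 6.3 CPM at L3. It was called luminal at P3.5 and M4 and basal at L3 and Id2. At W10 (log2 difference -1.055) it was called luminal only with the sort as a block (adjusted p = 0.00876 in limma, 0.0228 without it). The basal Id2 libraries read 18.1, 3.78 and 12.0 CPM in replicates 2, 4 and 6, so that replicate 4 lay within the luminal Id2 range of 2.43 to 4.88 CPM. The Id2 difference of 1.17 was not called without basal replicate 2 (0.74) or 6 (1.02) or luminal replicate 2 (1.24) or 4 (0.94), and was 0.02 with basal replicate 4 alone. In luminal cells its level was thus lowest at Id2, and in basal cells it was highest at L3.

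The second question was how the genes follow the reproductive cycle, with batches and lanes tied to time points as given above. In basal cells 31 of the 55 genes varied over the 8 time points (F test in limma, FDR below 0.01), when 44.5% of all genes did, and in luminal cells 22, when 34% of all genes did. A total of 14 varied in both cell types and 16 in neither, against 21% and 42.5% of all genes. Compared with the mean of the other 7 time points, most calls in basal cells were at Id2 (19 higher, 3 lower, when 9.2% and 7.91% of all genes were), L10 (10 and 3, against 8.02% and 5.74%) and P3.5 (2 higher and 11 lower, against 5.16% and 6%). In luminal cells they were at Id2 (10 and 3, against 6.21% and 4.03%) and L3 (5 and 3, against 4.47% and 3.61%). At Iw4 none was called higher and 2 lower in basal cells (1.57% and 0.638% of all genes) and none and 1 in luminal cells (0.726% and 0.217%). With replicate 4 as the only Id2 basal library, 12 were called higher and 2 lower at Id2 in basal cells (4.64% and 2.96% of all genes), of which 12 were among the 22 called with all 3 libraries.

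Of the inhibitors, *Timp1* was low at every time point but Id2. Luminal libraries held 1.28 to 10.6 CPM and basal libraries 0.888 to 30.0 CPM outside Id2. At Id2 it stood at 86.8, 1220 and 979 CPM in basal replicates 2, 4 and 6, and at 40.9, 39.9 and 79.5 CPM in the luminal libraries of the same sorts. All 6 Id2 libraries were above all libraries of the other time points. Against the mean of the other 7 time points the log2 change was 6.16 in basal cells (adjusted p = 1.2e-11 in limma) and 3.00 in luminal cells (4.1e-05).

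*Timp2*, which also takes part in the activation of pro-MMP2, was expressed throughout. In luminal cells it stood at 163 ± 39 CPM at P3.5 and 411 ± 80 CPM at L10 (SD, n = 3 each), and the Id2 libraries, with 870, 720 and 812 CPM, were above all others. The change at Id2 was 1.70 (adjusted p = 2.4e-08 in limma). In basal cells *Timp2* was lowest at P3.5, with 233, 213 and 186 CPM, and the change there was -1.21 (1.4e-05).

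*Timp3* in basal cells was lowest at P3.5 (168, 309 and 196 CPM) and highest at L10 (1886 and 2304 CPM), and at L3 it stood at 1183, 1111 and 1916 CPM. Luminal libraries held 8.06 to 187 CPM. The basal change was -1.94 at P3.5 (adjusted p = 0.00041 in limma) and 1.79 at L10 (0.005). Without L10 replicate 5 or 6 the L10 call was lost, with log2 changes of 1.93 and 1.65. Pericyte markers, given above, were higher in both basal L10 libraries than at W10. Their part in the *Timp3* result was not tested. A share of 21.3% of its exon bases overlaps *Syn3*, and its reads are uncertain to that extent.

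*Timp4* was measured mainly in basal cells in lactation and at Id2. Basal libraries held 11.5, 14.2 and 13.8 CPM at L3, 18.3 and 7.50 CPM at L10 and 3.90, 9.01 and 0.162 CPM at Id2, and no other library of either cell type exceeded 2.44 CPM. Its change in basal cells was 2.80 at L3 (adjusted p = 1.5e-07 in limma) and 2.65 at L10 (3.8e-06). Of 6 adipocyte markers 2 are in the table (*Lep* and *Plin1*), and their sum was 157 to 283 CPM in the 5 basal libraries of lactation, nearly all of it *Lep*, and at most 13.3 CPM in the other basal libraries. Their part in the *Timp4* result was not tested.

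**Figure D3:**
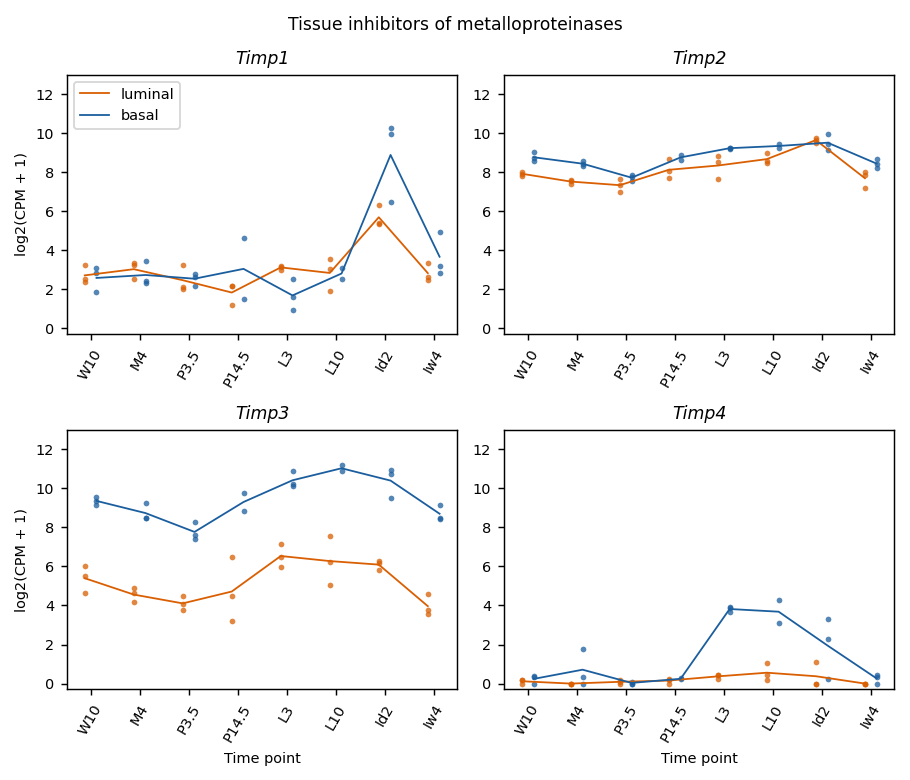
Level of the 4 inhibitor genes, as log2(CPM + 1), at the 8 time points (virgin, pregnant, lactating, weaned). Each point is a library and lines join the means, luminal in orange and basal in blue. *Timp1* is high at Id2 in both cell types, *Timp3* is higher in basal cells throughout and *Timp4* is measurable mainly in basal cells at L3, L10 and Id2.

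Among the gelatinases and stromelysins, *Mmp2* in basal cells stood at 527, 421 and 671 CPM at W10, at 36.3, 28.8 and 130 CPM at L3 and at 39.3 and 64.6 CPM at L10. Of the other basal libraries 1 of P3.5 with 94.3 CPM lay within this range of lactation, and the rest lay above it. At Id2 *Mmp2* read 141, 158 and 1046 CPM, the last in the library rich in fibroblast RNA. The L3 change of -2.15 (adjusted p = 0.0086 in limma) was lost without any one of 13 libraries and by edgeR (adjusted p = 0.0399). *Mmp9*, which encodes gelatinase B, did not exceed 1.98 CPM in any library. *Mmp3*, which encodes stromelysin 1, was at or below 6.05 CPM in basal libraries outside P14.5 (49.8 and 28.1 CPM) and Id2 (12.8, 21.2 and 193.6 CPM), and it was at 0 in both L10 libraries. The basal change was 3.82 at P14.5 (adjusted p = 0.00095 in limma) and 3.85 at Id2 (5.9e-07). With either P14.5 library left out the P14.5 call was lost (log2 changes of 3.42 and 4.22). Fibroblast markers were high in the same libraries, with 9616 and 4672 CPM at P14.5 and 2273, 7821 and 54950 CPM at Id2. Basal L3 replicate 6, with 4781 CPM of them, had 1.86 CPM of *Mmp3*. The part of fibroblast RNA in the *Mmp3* result was not tested.

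The membrane-type enzymes differed in their course. *Mmp14*, which activates pro-MMP2, was at 156 to 484 CPM in basal libraries and not called as varying over time there (adjusted p = 0.658 in limma). In luminal cells it was at 328, 172 and 163 CPM at W10 and at 32.5, 23.9 and 32.3 CPM at P14.5, with changes against the other time points of 1.58 and -1.61 (adjusted p = 8.3e-05 and 0.00012 in limma). *Mmp17*, anchored by a lipid, was at 9.45 to 23.8 CPM in basal cells of virgin, pregnant and parous mice. It reached 37.4, 106 and 88.5 CPM at L3 and 216 and 296 CPM at L10, the highest of all libraries, and was at 23.4, 89.0 and 23.4 CPM at Id2. The L10 change was 3.63 (adjusted p = 2.8e-08 in limma). Both basal L10 libraries also held more pericyte RNA than those of W10, as given above, and its part in the *Mmp17* result was not tested. *Mmp25*, another lipid-anchored enzyme, was at 9.02, 8.24 and 9.82 CPM in luminal cells at L3 and 11.5, 12.2 and 8.75 CPM at Id2, and at 3.91 CPM or less in all other luminal libraries (changes of 2.35 and 2.61). *Mmp28* was called higher in luminal cells at L3 only, with 10.5, 5.77 and 8.77 CPM (log2 change 2.43).

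*Adamts4*, an aggrecanase gene, stood in basal cells at 100, 75.6 and 33.8 CPM at W10, 37.7, 46.4 and 48.3 CPM at P3.5 and 28.9, 48.9 and 48.2 CPM at M4. It reached 1584 and 1520 CPM at L10 and 4387, 3375 and 1666 CPM at Id2, and was back at 50.4, 52.4 and 67.0 CPM at Iw4. The 3 Id2 libraries were the highest of all 46. The part of the pericyte RNA in the basal L10 libraries, given above, was not tested for *Adamts4*. The basal change was 3.31 at L10 (adjusted p = 2.2e-05 in limma) and 4.35 at Id2 (2.1e-09), while W10, P3.5, Iw4 and M4 were called lower, by -1.93, -2.53, -2.13 and -2.65. Of these 4 lower calls the one at P3.5 held without each library in turn, and those at W10 and Iw4 were lost without any one of the 3 libraries of that time point. The M4 call was lost without replicate 1 (-2.40, adjusted p = 0.0197). Luminal cells followed at a lower level, with 111, 159 and 134 CPM at Id2 (log2 change 2.83), and were called lower at Iw4 (-2.02) and M4 (-1.92). Both of these lower calls were lost without any one of the luminal libraries of the time point. By edgeR the lower calls at W10 and Iw4 in basal cells (adjusted p = 0.0255 and 0.0141) and at Iw4 and M4 in luminal cells (0.0198 and 0.0139) were not made.

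*Adamts18* moved the other way. Basal libraries held 395, 127 and 209 CPM at W10, 265, 214 and 132 CPM at P3.5 and 189 and 163 CPM at P14.5. They held 13.2, 19.2 and 6.59 CPM at L3, 3.67 and 2.66 CPM at L10 and 25.5, 0.291 and 0.970 CPM at Id2. At Iw4 the level was 99.1, 82.6 and 200 CPM. No library of lactation or Id2 reached the lowest of the other basal libraries. The change was -4.08 at L10 (adjusted p = 1.8e-06 in limma) and -4.11 at Id2 (2.1e-08), and 2.47 at W10, where the call was lost without replicate 3 (2.04, adjusted p = 0.035). *Adamts7*, which cleaves cartilage oligomeric matrix protein, was at 107, 99.2 and 72.6 CPM at P3.5 and 4.97, 3.81 and 5.57 CPM at L3 in basal cells, with changes of 2.11 and -2.48 (adjusted p = 2.4e-05 and 3.6e-06 in limma).

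*Adamts2* was lowest in basal cells at P3.5, with 15.3, 23.0 and 10.3 CPM, against 222 and 322 CPM at L10. The P3.5 change was -2.65 (adjusted p = 0.0004 in limma), and -2.38 (0.0115) without replicate 6, where the call was lost. *Adamts5*, the other main aggrecanase gene, was in luminal cells at 0.504, 0.911 and 1.12 CPM at W10 and 29.4, 60.2 and 31.3 CPM at P14.5 (changes of -2.46 and 2.60, adjusted p = 0.0011 and 0.00094 in limma). Both calls were lost without either of 2 replicates of the time point (W10 replicates 3 and 5, with -2.32 and -2.49, and P14.5 replicates 3 and 5, with 2.28 and 2.74). *Adamts9* in luminal cells was lowest at P3.5 (7.80, 12.1 and 8.20 CPM), with a change of -1.54 (adjusted p = 0.0079 in limma) whose call was lost without any one of 7 libraries and by edgeR (adjusted p = 0.016).

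Of the *Adam* genes, *Adam10*, which encodes the main sheddase of Notch receptors, was at 264, 348 and 298 CPM in luminal cells at W10 and at 64.0, 83.5 and 101 CPM at L3, where the change was -1.26 (adjusted p = 7.8e-05 in limma). *Adam9* was called higher at Id2 than over the other 7 time points in both cell types, with 178, 238 and 210 CPM in luminal and 160, 241 and 191 CPM in basal libraries and changes of 1.36 and 1.66 (2.3e-07 and 1.7e-09). In basal cells it was called higher at L10 too (129 and 176 CPM, 1.24), a call lost without L10 replicate 6, and the basal change from L10 to Id2 was 0.37 and not called (adjusted p = 0.318 in limma). The highest of the 3 basal values was 1.50 times the lowest, the smallest such ratio of the 36 genes with a mean of at least 5 CPM in these libraries. *Adam8* was highest in luminal cells at L10, with 11.8, 57.0 and 32.2 CPM. Its change of 1.81 (adjusted p = 0.0061 in limma) was lost without replicate 5 (1.32, 0.116) or replicate 6 (1.72, 0.056).

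**Figure D4:**
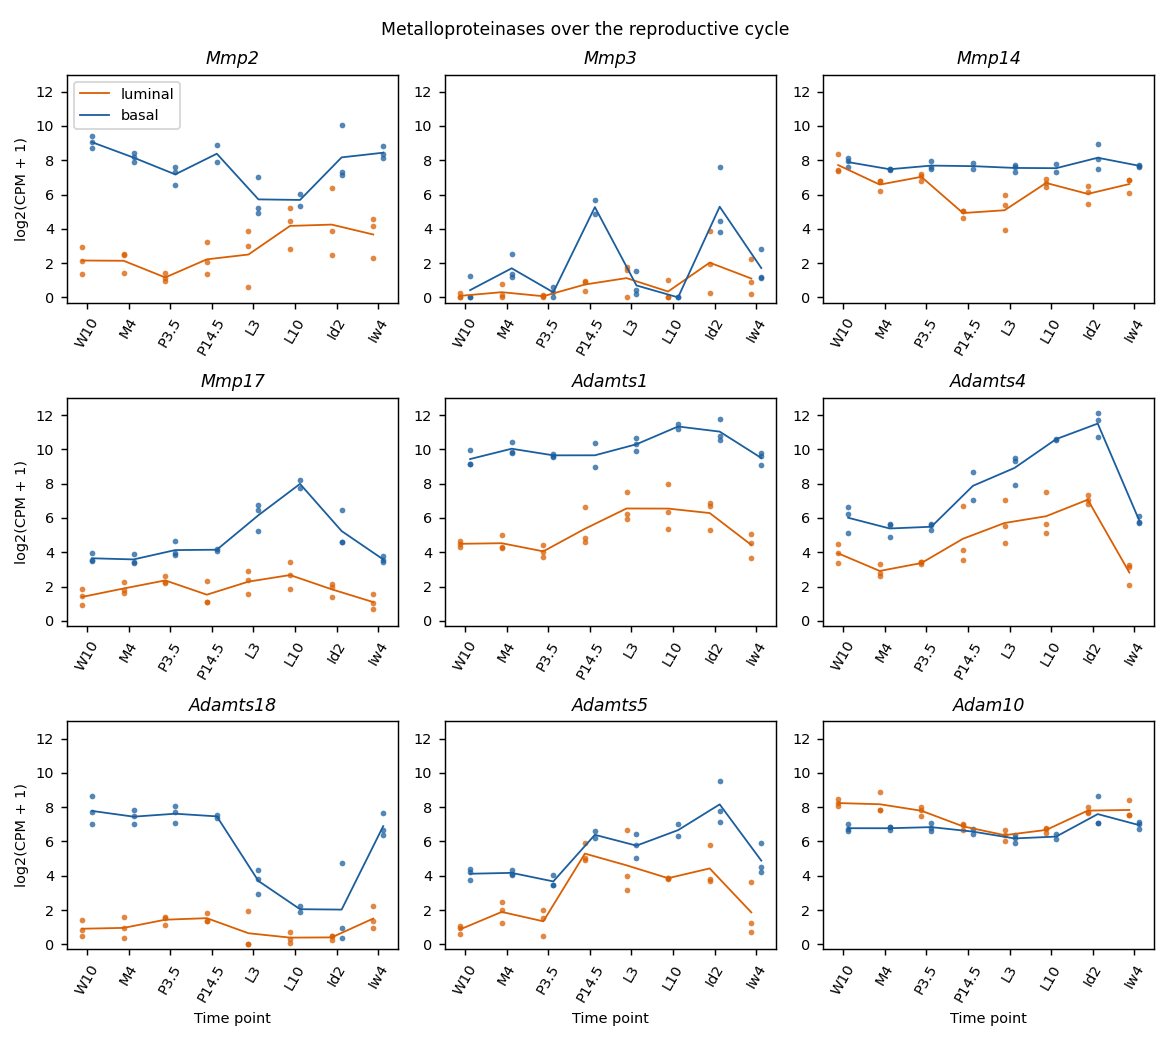
Level of 9 protease genes, as log2(CPM + 1), at the 8 time points. Each point is a library and lines join the means, luminal in orange and basal in blue. In basal cells *Mmp17* and *Adamts4* rise through lactation while *Adamts18* and *Mmp2* are low there, and *Mmp3* is high at P14.5 and Id2.

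The third question was what changed within 2 days of weaning. From L10 to Id2, 7 of the 55 genes were called higher and 3 lower in basal cells, when 5.63% and 7.68% of all genes were, and 4 were called higher and 3 lower in luminal cells, when 2.15% and 2.41% were. With 0.1 in place of 1 added to each CPM value, fewer were called higher in both cell types and fewer lower in basal cells. The median log2 change was 0.36 over the 55 genes and 0.06 over all genes in basal cells, and 0.09 against -0.01 in luminal cells. With replicate 4 as the only Id2 basal library, 4 genes were called higher (*Timp1*, *Mmp3*, *Mmp19* and *Adamts6*) and none lower (1.46% and 1.82% of all genes), and all 4 were among the 7. Without L10 replicate 6, which leaves 1 basal L10 library that is assumed to vary like the others, 3 were called higher.

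*Timp1* rose in basal cells by 6.07 ± 0.77 (SE, adjusted p = 3.48e-07 in limma), from 7.42 and 4.84 CPM at L10 to the 86.8, 1220 and 979 CPM given above. This SE, like the others, comes from a variance pooled over all groups, not from the spread of the Id2 basal libraries alone. Without replicate 2, 4 or 6 the change was 7.29, 5.39 and 5.54, and each time it was called. *Mmp3* rose by 5.29 ± 0.79 (4.99e-06), and without replicate 2, 4 or 6 by 6.04, 5.70 and 4.13, again called each time. Since both L10 libraries were at 0, this fitted value depends on the pseudocount. *Adam23*, which encodes a receptor without protease activity, went from 6.20 and 1.80 CPM to 22.3, 46.2 and 410 CPM (4.09 ± 0.86, adjusted p = 0.000568 in limma), and *Mmp19* from 1.66 and 6.27 to 11.6, 60.2 and 301 CPM (3.80 ± 0.85). Without Id2 replicate 6, the library rich in fibroblast RNA, the changes were 2.89 and 2.66, and the *Mmp19* call was lost (adjusted p = 0.018). It was lost too without L10 replicate 5 (3.08), and that of *Adam23* without L10 replicate 6 (3.41). A share of 28.3% of the exon bases of *Mmp19* overlaps *Tmem198b*.

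*Adamts6* changed from 1.22 and 0.950 CPM to 1.72, 11.0 and 21.8 CPM (2.12 ± 0.48) and *Adam33* from 1.14 and 0.095 CPM to 1.41, 3.59 and 15.2 CPM (1.88 ± 0.54). Both calls were lost without Id2 replicate 6 (1.46 and 1.12), that of *Adamts6* also without L10 replicate 6 (2.03) and that of *Adam33* without any one of 23 libraries. By edgeR neither was called (adjusted p = 0.0544 and 0.0812). *Adam10* stood at 70.3 and 84.0 CPM at L10 and at 402, 133 and 134 CPM at Id2 (1.31 ± 0.33). Without replicate 2, the library rich in endothelial RNA, the change was 0.78 and not called, and without L10 replicate 5 or 6 (1.19 and 1.44) the call was lost too. The part of fibroblast and endothelial RNA in these results was not tested beyond these omissions.

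Lower in basal cells at Id2 were *Mmp17*, from 216 and 296 CPM to 23.4, 89.0 and 23.4 CPM (-2.75 ± 0.49, adjusted p = 7.91e-05 in limma), *Adam11*, another non-protease member, from 4.63 and 23.1 CPM to 0.937, 1.94 and 1.29 CPM (-2.31 ± 0.57), and *Timp4* (-1.74 ± 0.48). *Mmp17* was called without each library in turn, and with replicate 4 alone its change was -1.50 and not called. Of the Id2 basal libraries, replicate 4 was highest in *Mmp17* and in the basal and pericyte marker sums given above. The part of these cells in its fall was not tested. Without L10 replicate 6 or Id2 replicate 2 the *Adam11* call was lost (-1.26 and -2.17), and without L10 replicate 5 or Id2 replicate 6 that of *Timp4* (-1.14 and -0.87). By edgeR neither *Adam11* nor *Timp4* was called (adjusted p = 0.0217 and 0.314). *Timp2* (0.17 ± 0.28) and *Timp3* (-0.63 ± 0.59) were not called.

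In luminal cells from L10 to Id2, *Timp1* rose from 2.79, 10.6 and 7.34 CPM to 40.9, 39.9 and 79.5 CPM (2.85 ± 0.69, adjusted p = 0.00528 in limma). The groups did not overlap, but the call was lost without any one of 5 of these 6 libraries, with changes of 2.39 to 3.02. *Mmp25* rose by 2.28 ± 0.43, *Adam10* by 1.13 ± 0.29 and *Adam9* by 1.08 ± 0.23. The *Mmp25* call was lost without L10 replicate 6 (1.64), the *Adam9* call without L10 or Id2 replicate 4 (both 0.98), and the *Adam10* call without any one of 35 libraries. *Timp2* changed by 0.97 ± 0.25 (adjusted p = 0.00905), just short of the minimum fold change. Lower were *Mmp16*, from 16.2, 8.70 and 32.6 CPM to 2.37, 0.374 and 5.09 CPM (-2.55 ± 0.61), *Adamts8*, from 19.0, 8.12 and 15.5 CPM to 0.395, 1.50 and 5.49 CPM (-2.35 ± 0.53), and *Adamts7*, from 24.5, 4.35 and 8.20 CPM to 0.988, 2.25 and 1.22 CPM (-2.15 ± 0.46). Each of the 3 calls was lost without L10 replicate 4 (-2.57, -2.12 and -1.53) or Id2 replicate 2 (-2.62, -1.84 and -2.01), and those of *Mmp16* and *Adamts8* also without L10 replicate 6 (-2.09 and -2.26) or Id2 replicate 4 (-1.97 and -2.26). By edgeR the luminal changes of *Mmp25* (adjusted p = 0.207), *Mmp16* (0.028), *Adamts8* and *Adam10* (both 0.0132) were not called.

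The change from L10 to Id2 was called different between basal and luminal cells for 2 genes, *Mmp16* (basal 1.40, luminal -2.55) and *Adamts7* (basal 1.09, luminal -2.15), when 1.49% of all genes were called with a larger basal and 2.24% with a larger luminal change. The differences were 3.94 ± 0.92 and 3.24 ± 0.69 (adjusted p = 0.00497 and 0.00212 in limma). Without basal Id2 replicate 6 neither was called (3.12 and 2.71), nor without basal L10 replicate 6 (3.33 and 3.18), and *Mmp16* not without luminal L10 replicate 6 (3.48) or luminal Id2 replicate 4 (3.37), nor by edgeR (adjusted p = 0.0108). For *Timp1* the difference was 3.22 ± 1.03 (adjusted p = 0.0402), which missed the threshold. With the sort as a block, *Mmp3* was called as well (3.60, adjusted p = 0.00612, against 0.0242 without it), and *Mmp13* with a larger luminal change (-1.82, 0.00799).

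W10 and Id2 were amplified in the same batch but sequenced on different lanes, and against W10 more of the genes were called: 17 higher and 4 lower in basal cells, when 8.78% and 8.58% of all genes were, and 11 higher and 5 lower in luminal cells, when 6.23% and 4.14% were. With replicate 4 as the only Id2 basal library 13 were called higher and 5 lower (5.39% and 3.92% of all genes), 17 of them among the 21. The largest rises in basal cells were those of *Timp1* (6.30 ± 0.69), *Adam23* (5.73 ± 0.77), *Adamts4* (5.49 ± 0.61), *Mmp19* (4.96 ± 0.76), *Mmp3* (4.87 ± 0.70) and *Adamts5* (4.05 ± 0.67). These 6 were called without each library in turn. W10 is the virgin gland, so that these changes also hold those of pregnancy and lactation. From L10 to Id2 the basal changes of *Adamts4* (0.91 ± 0.68, adjusted p = 0.353 in limma) and *Adamts5* (1.50 ± 0.75, 0.141) were not called. Lower were *Adamts18* (-5.76 ± 0.63), *Adamts17* (-3.61 ± 0.56), *Adamts20* (-2.64 ± 0.40) and *Adamts7* (-1.67 ± 0.46), none of them called from L10 to Id2 (-0.02, -1.70, -0.91 and 1.09). The *Adamts7* call was lost without W10 replicate 3, Id2 replicate 2 or Id2 replicate 4 (-1.29, -1.60 and -1.21), and by edgeR (adjusted p = 0.0164). In luminal cells *Adamts5* (3.56 ± 0.67), *Adamts4* (3.13 ± 0.61), *Mmp12* (2.98 ± 0.65), which encodes macrophage elastase, *Timp1* (2.98 ± 0.69) and *Mmp25* (2.78 ± 0.43) rose most, and *Adamts17* (-4.27 ± 0.56), *Mmp16* (-3.33 ± 0.61) and *Adamts3* (-3.19 ± 0.35) fell most. Of these 8 only *Timp1*, *Mmp25* and *Mmp16* were called in luminal cells from L10 to Id2. The *Mmp12* call was lost without luminal Id2 replicate 4 (2.51), and the *Timp1* call without luminal Id2 replicate 6 or W10 replicate 3 (2.66 and 2.80). The luminal *Mmp25* rise was not called by edgeR (adjusted p = 0.0598). The luminal Id2 libraries held 41.1, 158 and 215 CPM of macrophage markers, and *Mmp12* stood at 2.96, 19.1 and 13.4 CPM in them. The part of macrophage RNA in it was not tested.

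The change from W10 to Id2 was called different between the cell types for 4 genes. The basal minus the luminal change was above 0 for 2 of them (2.6% of all genes) and below 0 for 2 (4.25%). *Adamts3* (difference 2.22 ± 0.49) fell by 3.19 in luminal and by 0.97 in basal cells, the latter not called, and *Mmp14* (1.94 ± 0.49) by 1.68 in luminal cells, with 0.26 in basal cells. The *Mmp14* difference was not called without any one of 6 libraries (lowest 1.55, without basal Id2 replicate 6), and its luminal fall not without luminal Id2 replicate 4 (-1.39). *Adamts18* (-5.25 ± 0.90) and *Adamts20* (-2.73 ± 0.56) fell in basal cells, while luminal libraries at W10 held at most 1.71 CPM of either. From L10 to Id2 none of the 4 was called different between the cell types. By edgeR the difference against W10 between cell types was not called for *Adamts18* or *Adamts20* (adjusted p = 0.327 and 0.124). With the sort as a block the difference was called above 0 for 9 genes, the others being *Timp1*, *Mmp16*, *Mmp19*, *Adamts6*, *Adamts12*, *Adam23* and *Adam30*. The share of all genes under this fit is not given here, so the count was not set against that background. Without basal Id2 replicate 2 the difference was called above 0 for 13 genes, again with no share of all genes given. With replicate 4 as the only Id2 basal library it was above 0 for 4 genes and below for 1 (2.81% and 2.44% of all genes), and 1 of these was among the 4 called with all libraries.

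The 3 Id2 basal libraries differed from each other more in these genes than in genes at large. Over the 36 genes with a mean of at least 5 CPM in these libraries, the highest was a median of 6.58 times the lowest, against 1.98 times over 10155 genes with such a mean. The filter used the mean of the same 3 libraries, so a gene high in 1 of them could pass through it alone. *Adam33* (1.41, 3.59 and 15.2 CPM) and *Adamts18* (25.5, 0.291 and 0.970 CPM) did so. The genes were not matched for level, so part of this contrast may come from the filter. Replicate 6 was highest for 20 of the 36, replicate 2 for 11 and replicate 4 for 5. *Mmp2* (141, 158 and 1046 CPM), *Adamts2* (45.3, 355 and 838 CPM), *Adamts12* (50.6, 241.5 and 614 CPM) and *Adam12* (24.2, 188 and 385 CPM) were highest in replicate 6, the library with the most fibroblast RNA. *Adamts9* (1767, 415 and 181 CPM), *Adam15* (309, 58.5 and 55.3 CPM) and *Adamts4* were highest in replicate 2, the library with the most endothelial RNA. *Timp1* and *Adamts1* (1485, 3498 and 1789 CPM) were highest in replicate 4, which had the largest basal and the largest pericyte marker sum of the 3. Its pericyte sum was 11420 CPM, against 3326 and 2675 CPM in replicates 2 and 6. The part of these other cells was not tested. The genes of this paragraph other than *Timp1*, *Adamts1*, *Adamts4*, *Mmp2*, *Adamts2* and *Adam12* were chosen after their values were seen.

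**Figure D5:**
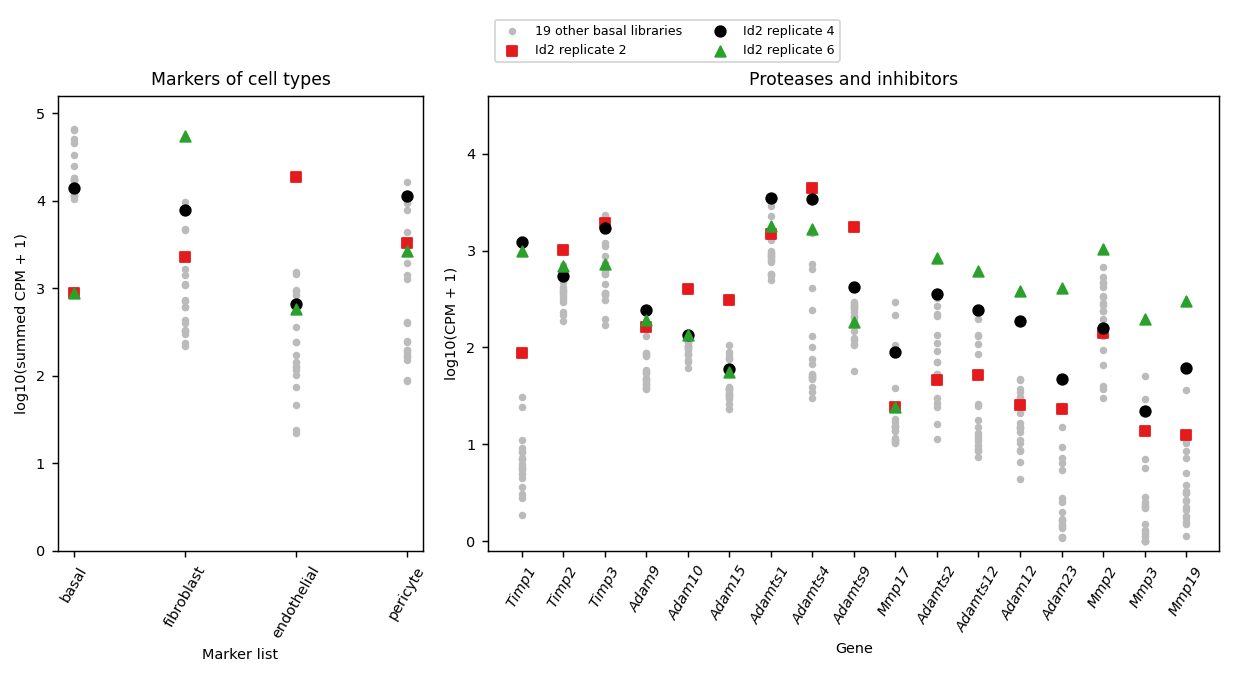
Left, summed CPM of 4 marker lists, and right, CPM of 17 genes, both as log10 of the value plus 1, in the 3 basal Id2 libraries (red squares, black circles and green triangles) and the 19 other basal libraries (grey). Replicates 2 and 6 lie below all grey points for basal markers, replicate 2 is far above them for endothelial and replicate 6 for fibroblast markers, and *Timp1* lies above the grey points in all 3.

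Summed per kilobase of exon, the inhibitor family was at 149.5 to 433 CPM per kb in basal cells at 6 of the other time points (means over libraries) and 87.1 ± 10 at P3.5, and reached 1231 ± 580 at Id2 (SD, n = 3), of which *Timp1* made up 69.7%. The *Adamts* sum in basal cells was 222 ± 74 CPM per kb at W10, 900 ± 85 at L10 (n = 2) and 1264 ± 280 at Id2, led by *Adamts1* at L10 (54.6%) and by *Adamts4* at Id2 (51.7%). The *Mmp* sum in basal cells was 215 ± 44 at W10, 76.2 ± 20 at L3 and 292 ± 292 at Id2, led by *Mmp2*, *Mmp14* and *Mmp2*. In luminal cells the *Timp* sum was 74.0 ± 4.6 at W10 and 274 ± 34 at Id2, the *Adamts* sum stayed between 17.7 and 58.0 as means, and the *Adam* sum was 98.2 ± 12 at W10, 52.1 ± 3.2 at P14.5 and 118 ± 14 at Id2. These sums are levels and were not tested.

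Other genes of matrix turnover were followed in lists. In basal cells from L10 to Id2, 2 of 7 genes of the plasminogen system were called higher and 1 lower. Those higher included *Serpinb2*, a protease inhibitor gene, from 0.437 and 0 to 0.312, 46.4 and 40.9 CPM (3.52 ± 0.86). The gene called lower was *Serpinb5*, the maspin gene, from 42.5 and 54.5 to 6.87, 31.1 and 5.66 CPM (-2.05 ± 0.58). Of all genes, 5.63% were called higher and 7.68% lower from L10. Of 15 other inhibitor genes 1 was called higher, *Tfpi2* (3.93 ± 0.52), and 2 lower, *Spock2* (-3.07 ± 0.37) and *Wfdc1* (-2.61 ± 0.47), and all 3 were called without each library in turn, but *Wfdc1* not by edgeR (adjusted p = 0.143). Of 14 other proteases and processing enzymes none was called higher and 1 lower, the membrane protease gene *Mme* (neprilysin, CD10), from 1123 and 1596 to 10.9, 54.9 and 49.1 CPM (-5.38 ± 0.62). *Ctsk* (0.98 ± 0.84), *Pcolce* (0.55 ± 0.67) and *Tll1* (2.03 ± 0.92) were not called, and in each a single library stood out. *Ctsk* reached 133 CPM and *Pcolce* 920 CPM in replicate 6, and *Tll1* 266 CPM in replicate 2, against 9.40 and 11.6 CPM in the other two.

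Against W10, 8.78% of all genes were called higher and 8.58% lower, and 5 of the 14 other proteases and processing enzymes were called higher and 1 lower in basal cells. *Fap*, which encodes fibroblast activation protein, was at 0.222, 0.205 and 0 CPM at W10 and at 10.9, 19.1 and 124 CPM in Id2 replicates 2, 4 and 6 (4.77 ± 0.67). *Ctsk* (4.35 ± 0.75), *Pcolce* (4.21 ± 0.60), *Tll1* (2.89 ± 0.82) and *Pcolce2* (2.53 ± 0.66) were the others called higher, and *Mme* (-4.89 ± 0.56) was lower. *Fap*, *Ctsk*, *Pcolce* and *Pcolce2* were highest in replicate 6, the library rich in fibroblast RNA, whose part was not tested. The *Tll1* call was lost without Id2 replicate 2 or any one W10 basal library (1.38 or more), and that of *Pcolce2* without Id2 replicate 6 or W10 replicate 3 or 5 (1.75 or more). Of the 15 other inhibitor genes 2 were higher, *Tfpi2* (3.40 ± 0.47) and *Serpinh1* (1.43 ± 0.42), and 4 lower, *Papln* (-3.55 ± 0.68), *Spock2* (-3.13 ± 0.33), *Spock3* (-2.65 ± 0.38) and *Spint2* (-1.57 ± 0.42). Higher too were 2 of 5 *Adamts*-like genes, *Adamtsl1* (4.23 ± 0.51) and *Adamtsl5* (1.73 ± 0.51), and 2 of 9 inducers and partners, *Tspan15* (2.10 ± 0.47) and *Tspan17* (1.84 ± 0.34), with none lower. Of 7 genes of the plasminogen system 3 were called higher and 1 lower, and of 21 matrix and shed substrates 4 and 4. The calls of *Serpinh1* and *Adamtsl5* were lost without Id2 replicate 4 or 6 or any one W10 basal library (0.78 or more and 1.28 or more), that of *Spint2* without Id2 replicate 6 or W10 replicate 5 or 6 (nearest to 0 with -0.65) and that of *Tspan15* without Id2 replicate 2 (1.34). By edgeR *Pcolce2*, *Adamtsl5* and *Spint2* were not called (adjusted p = 0.0137, 0.0132 and 0.0557). Those of these genes not named from L10 to Id2 were chosen after their values were seen.

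From L10 to Id2, of 5 *Adamts*-like genes 1 was called lower (*Adamtsl4*, -1.51 ± 0.42), and of 9 inducers and partners 1 higher (*Tspan5*, which encodes a tetraspanin partner of ADAM10, 2.40 ± 0.62). The shares of all genes called in this comparison are those given above. Of 21 matrix and shed substrates 1 was called higher, *Ereg* (epiregulin, 3.92 ± 0.91), and 4 lower. Those lower included the laminin gene *Lama3* (-5.35 ± 0.62) and the cadherin genes *Cdh2* (-2.30 ± 0.60) and *Cdh1* (-1.50 ± 0.40, chosen after its value was seen). *Lama3* stood at 931 and 1018 CPM at L10 and at 12.2, 77.3 and 12.3 CPM at Id2, the highest in replicate 4. *Lama3* and *Mme* were called without each library in turn. Of the others, the calls of *Serpinb2*, *Serpinb5*, *Adamtsl4*, *Ereg* and *Cdh2* were lost without Id2 replicate 6 (2.72, -1.63, -1.49, 3.35 and -2.23), and those of *Tspan5*, *Serpinb5*, *Adamtsl4* and *Cdh2* without Id2 replicate 2 (1.46, -1.75, -1.43 and -1.84). Without Id2 replicate 4 the calls of *Serpinb2* and *Ereg* were lost (2.63 and 3.14). Without L10 replicate 6 these 6 calls were all lost (*Tspan5* 0.84, *Serpinb2* 3.26, *Serpinb5* -1.87, *Adamtsl4* -1.75, *Ereg* 2.75, *Cdh2* -1.91), and without L10 replicate 5 those of *Serpinb2*, *Serpinb5* and *Adamtsl4* (3.78, -2.22 and -1.27). The *Cdh1* call was lost without L10 replicate 5, L10 replicate 6 or Id2 replicate 6 (nearest to 0 with -0.88). By edgeR *Serpinb2*, *Serpinb5*, *Ereg*, *Cdh2* and *Cdh1* were not called (adjusted p = 0.0132, 0.0367, 0.0103, 0.0227 and 0.0174). The call was lost for *Serpinb5* also without any one of 5 libraries of other groups (-2.05 each). In replicate 4 *Lama3* and *Mme* were at 77.3 and 54.9 CPM, below both L10 libraries. That library also had less *Krt5* (156 CPM) than any basal library of another time point, and 11420 CPM of pericyte markers. The part of other cells in these changes was not tested.

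The last comparison was of the parous gland with virgin glands. Between Iw4 and M4 none of the 55 genes was called by limma in either cell type, none had an unadjusted p below 0.05, and none was called by edgeR on the recovered reads. Of all genes, 0% were called higher in both cell types, and 0.00586% lower in basal and 0% in luminal cells. The largest differences were 1.53 on the log2 scale, of *Mmp2* in luminal cells, and 1.04, of *Mmp19* in basal cells. *Adamts4*, *Timp1* and *Adamts18* in basal cells, which were called at Id2 against the mean of the other time points, stood at 56.6 ± 9.0, 14.8 ± 13 and 127 ± 63 CPM at Iw4 and at 42.0 ± 11, 6.11 ± 3.3 and 178 ± 52 CPM at M4 (SD, n = 3 each).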

How the data were processed

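Of 47 samples described 46 were used. The remaining one, basal replicate 2 of P14.5, is not analysed here. Some genes of the pathway lists are not reported here. All columns were used (0 left out). The authors amplified the RNA, aligned reads with GSNAP to mouse mm9, counted them per gene with htseq-count, removed genes with few reads and genes with very many reads and low variability, and normalized with edgeR. The deposited signal is CPM by effective library size. Each value is a whole multiple of 1 read (within 0.01 reads for 100% of values), so reads were recovered. Symbols were matched for 16897 gene identifiers, and exon lengths come from a later annotation (GRCm38).

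Models were fitted on log2(CPM + 1) with limma 3.58.1 (R 4.3.3), a scale that understates changes of low genes, with a mean for each of 16 conditions and a mean-variance trend. The model was also run on simulated data, whose outcome is not given here. Calls needed a 2-fold difference or more and an adjusted p (Benjamini-Hochberg, all 17078 genes) under 0.01. A group has 2 or 3 libraries, each from 4 pooled mice. The p-values and SEs rest on the spread between sorts within groups, pooled for each gene over the 16 conditions. They do not measure the spread of a single group, such as the Id2 basal libraries. Luminal and basal libraries of a sort deviated together (median correlation 0.25 over 22 pairs, 21 positive), so the sort was also fitted as a block (consensus correlation 0.179).

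Alternatives were a pseudocount of 0.1, median-ratio scaling, a mean of at least 5 CPM, edgeR 4.0.16 on the recovered reads, an FDR of 0.05, other sets of time points and each library left out. Omission of the Id2 basal replicates 2 and 6 together, and the mean of 6 time points, were chosen after seeing the data. The gene families, lists, markers and tests were chosen with earlier results of these data known. Named are every *Timp*, the up to 8 genes with the largest called changes in the main contrasts, the largest at each time point, genes called in both directions, the 10 highest per kilobase and up to 4 per pathway list with 3 that the study names; genes named against W10, *Mmp9*, *Mmp25*, *Adam17* and those marked were added after their values were seen.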

Additional observations from a re-analysis of the deposited data

Results flagged for a closer look

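Groups hold 2 or 3 libraries, so no single library was tested against its group. The genes given here are those whose difference between Id2 and L10, or between Id2 and W10, was not the same in basal and luminal cells by a direct test in limma. Against L10, the change on weaning, these were *Mmp16*, with a basal minus luminal difference of 3.94 on the log2 scale, and *Adamts7*, with 3.24. Neither was called without basal Id2 replicate 6, without basal L10 replicate 6 or with Id2 basal replicate 4 alone, and *Mmp16* was also not called without luminal L10 replicate 6, without luminal Id2 replicate 4 or by edgeR (adjusted p = 0.0108). Against W10, virgin glands amplified in the same batch but sequenced on another lane, they were *Adamts18* (-5.25, adjusted p = 7.9e-05) and *Adamts20* (-2.73), whose basal level was lower than at W10 while luminal cells had little of either, *Adamts3* (2.22), which was lower in luminal cells (-3.19, basal -0.97, not called), and *Mmp14* (1.94), which was lower in luminal cells (-1.68, basal 0.26, not called). From L10 to Id2 none of these 4 was called different between the cell types, and basal *Adamts18* (-0.02) and *Adamts20* (-0.91) were not called. By edgeR the differences of *Adamts18* and *Adamts20* against W10 were not called (adjusted p = 0.327 and 0.124). With Id2 basal replicate 4 alone the *Adamts3* difference was 1.08 and not called. Most of these 4 genes, *Adamts3* among them, lost their call there. The *Mmp14* difference was not called without any one of 6 libraries, among them basal Id2 replicate 6 (1.55). With the sort as a block, 9 genes instead of 2 had a larger basal change against W10, *Timp1* among them (3.32, adjusted p = 0.00775 and 0.0181 without the block). The share of all genes under the block is not given here.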

How the results depend on the processing

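With each of 46 libraries left out in turn, the number of genes called basal was 25 to 28 and luminal 3 to 4, those called basal at 1 or more time points 34 to 36 and luminal 6 to 8, those varying over time 19 to 24 (luminal) and 29 to 33 (basal), and those called at a time point against the others 19 to 25 and 30 to 35. From L10 to Id2 the ranges were 3 to 8 higher and 2 to 4 lower in basal cells and 1 to 5 higher and 0 to 4 lower in luminal cells, against W10 13 to 18, 3 to 5, 7 to 12 and 4 to 7, and for a different change between cell types from L10 0 to 6 (basal higher) and 0 to 2 (luminal higher) and from W10 1 to 13 and 2 throughout. Between Iw4 and M4 it was 0 throughout. The count of basal rises from L10 was 3 without basal L10 replicate 6. That of luminal rises was 1 without luminal L10 or Id2 replicate 4, and 2 without luminal L10 or Id2 replicate 6. Luminal falls numbered 0 without luminal L10 replicate 4 or Id2 replicate 2, and 1 without luminal L10 replicate 6 or Id2 replicate 4. The 7 luminal rises from W10 were without luminal Id2 replicate 6. The difference between cell types was called basal higher for 0 genes without basal L10 or Id2 replicate 6, and for 6 without basal Id2 replicate 2, and from W10 for 13 without basal Id2 replicate 2 and 8 without luminal Id2 replicate 6.

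At an FDR of 0.05 without a minimum fold change, 9 genes were luminal, 7 were lower at Id2 than L10 in basal and 5 in luminal cells, 26 higher than W10 in basal and 8 lower in luminal cells, 4 and 1 differed between cell types from L10, and 12 had a larger basal change from W10. With a pseudocount of 0.1, 3 were higher and 1 lower at Id2 than L10 in basal cells, 2 higher in luminal cells, 11 higher than W10 in basal cells, and 1 had a larger luminal change from W10. The filter at a mean of 5 CPM left 1 lower from L10 in basal cells. By edgeR, 1 was lower in basal cells, 2 higher and 1 lower in luminal cells, 1 differed with a larger basal change from L10, and 0 with a larger luminal change from W10. With Id2 basal replicate 4 alone, 4 were higher than L10, 0 lower and 0 differed, and from W10 the change was larger in basal cells for 4 and in luminal cells for 1. The replicate block (pairing by sort) gave 1 gene with a larger luminal change from L10 in place of 0 and 9 with a larger basal change from W10 in place of 2, and moved no other of these counts by over 1.5 times. Median-ratio scaling moved none. The cause of these differences was not tested. For most of these alternatives the share of all genes is not given. Their counts therefore do not set these genes against genes at large.

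Over 79 combinations of a named gene and a comparison, 3882 alternative values kept direction and side of the threshold, 199 fell below it, 4 passed it and 11 turned sign. These 11 were uncalled changes, all from L10 to Id2. With single libraries left out, basal *Timp2* ranged from -0.062 to 0.37, luminal *Timp3* from -0.80 to 0.46, luminal *Timp4* from -0.56 to 0.072, the *Timp3* difference between cell types from -1.09 to 0.17, basal *Ctsk* from -0.026 (without Id2 replicate 6) to 1.88, and basal *Pcolce* from -0.32 (without Id2 replicate 6) to 1.45. Basal *Timp2* was at -0.23 with replicate 4 alone, and the *Timp3* difference at 0.036 by edgeR. Depth limits genes such as *Mmp9*, *Mmp13* and *Adamts16*, which were below 3 reads in most libraries of either cell type.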
